A study of Mus musculus with 48 samples.

Results

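Histone deacetylases remove acetyl groups from lysines of histone tails and of other proteins, and acetylation at promoters and enhancers usually accompanies active transcription. The zinc-dependent enzymes fall into class I (Hdac1, Hdac2, Hdac3 and Hdac8, mostly nuclear and built into repressor complexes), class IIa (Hdac4, Hdac5, Hdac7 and Hdac9, which shuttle between cytoplasm and nucleus, bind MEF2 transcription factors and have little deacetylase activity of their own), class IIb (here Hdac6, a cytoplasmic tubulin deacetylase) and class IV (Hdac11). In neurons HDAC2 and HDAC3 are known as brakes on memory-related gene expression, and inhibitors such as Vorinostat block several of the zinc-dependent enzymes. The study gave Vorinostat to mice, but none of the samples analysed here is from a Vorinostat-treated mouse, so the data describe the mRNA of the enzymes and not their activity. The 10 genes named above were taken by their mouse symbols from the 48709 genes of the count files, and all 10 passed the filter on low counts in every comparison.

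RNA-sequencing counted reads on genes in whole tissue of male C57BL/6J mice, in 46 mice and 8 groups. The first 4 groups, labelled dentate gyrus (DG), were wild-type mice at 3 months (5 mice) and 8 months (3 mice) and Fmn2 knockout (Fmn2-/-) mice, which lack the formin Fmn2 in every cell, at 3 months (5 mice) and 8 months (5 mice). The next 2 groups, also labelled dentate gyrus, came at 3 months from a cross of Fmn2-/- mice with APPPS1-21 mice, which carry transgenes for mutant human APP and presenilin 1, with 7 mice labelled FMN2-/-_APP and 9 mice labelled FMN2 +/+ APP. The last 2 groups were 6 mice labelled APP and 6 mice labelled wild type at 4 months, whose titles name the prefrontal cortex (PFC) although their tissue field says dentate gyrus. Normalized read counts are given as CPM (read counts scaled to a common library size) after edgeR's TMM scaling over all 46 mice. Levels are compared between genes as RPKM, which divides CPM by the exon length of the gene in kilobases. That length covers the exons of all annotated transcripts of the gene.

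The labels were checked against Fmn2 and cell type markers. Fmn2 stood at 93.2 to 109 CPM in 3-month wild-type mice and 22.3 to 27.4 in Fmn2-/- mice, and at 77.2 to 107.1 and 21.7 to 28.2 at 8 months. In the cross the direction was the opposite of the labels, with 83.3 to 101.8 CPM in the mice labelled FMN2-/-_APP and 18.9 to 23.4 in those labelled FMN2 +/+ APP. These mice are therefore named by their labels throughout, and no direction between the 2 groups can be read as an effect of Fmn2. The 6 granule cell markers of the dentate gyrus summed to between 884 and 1549 CPM in the first 6 groups and to between 222 and 314 in the libraries titled PFC, whereas 6 markers of cortical excitatory neurons summed to between 120 and 351 and between 638 and 729, so the PFC-titled libraries go against their tissue label. Choroid plexus markers passed 1000 CPM in 3 libraries, Fmn2-/- replicate 4 of 3 months (4125 CPM) and replicates 4 and 5 labelled FMN2 +/+ APP (9130 and 5994 CPM). Between 6818809 and 43921030 reads were counted per mouse, and the 8-month libraries were the shallowest apart from wild-type replicate 1, with 6818809 to 11675280 reads.

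Hdac1 (ENSMUSG00000028800, chromosome 4 of mm10 from 129516104 to 129542713) has a limit of its own that the sequence shows. It has processed pseudogenes, intronless copies of its mRNA inserted elsewhere in the genome. Of the 50-base windows of its protein-coding transcript, 58.7% also occur, base for base, in transcripts of 3 other annotated genes. The other 9 deacetylases had 0 such windows each, in a count that left out genes overlapping a deacetylase on the genome. Hdac4 and Hdac11 share exon bases with such overlapping genes (3536 with Gm26720 and 594 with Gm44002, both on the opposite strand). The closest copy of Hdac1 that is listed in the count files, Gm10093 (ENSMUSG00000061062, chromosome 17 from 78491582 to 78493025), is 99.4% identical over 1444 bases, with 9 mismatches. The 120-base coding window with the most mismatches is shown, bases 447 to 566 of transcript ENSMUST00000102597.4 and bases 363 to 482 of ENSMUST00000079363.5, with the mismatched bases in capitals.
Hdac1: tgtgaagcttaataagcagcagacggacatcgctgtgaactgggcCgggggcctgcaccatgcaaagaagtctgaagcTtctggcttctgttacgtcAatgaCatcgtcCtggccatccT
Gm10093: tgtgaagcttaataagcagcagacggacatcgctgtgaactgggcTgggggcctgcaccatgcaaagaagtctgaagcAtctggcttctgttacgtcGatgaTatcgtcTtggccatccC
A read from most of the coding sequence matches both genes equally well, and such reads can be lost from, or shared out between, the counts of the 2 genes. How many Hdac1 reads were affected was not tested. Gm10093 itself stood at 0.838 to 2.88 CPM in the first 4 groups, or 14.6 to 45.5% of the Hdac1 count, and at 0.0639 to 0.312 CPM in the PFC-titled libraries, or 0.727 to 3.33%. In the cross it ranged from 0.163 to 2.26 CPM.

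Upstream sequence from RefSeq's promoter table (GRCm38.p6) was used for 8 of the 10 genes, over 12 start sites, and is not reported here for Hdac1 and Hdac3. It was searched on both strands for the GC box (GGGCGG, a letter string that Sp family factors are known to bind), which was found at 6 of these 12 starts, belonging to 6 genes, against 32.7% of the 32851 starts of the table. The 250 bases before the start are printed for Hdac2, the member with the highest mean RPKM in the dentate gyrus, and for Hdac6. GC boxes of either strand are in capitals. These 2 genes were taken since their levels differed in opposite directions between the PFC-titled and the dentate gyrus libraries (described further on). The Hdac2 window is on the plus strand at chr10:36974294-36974543 and the Hdac6 window on the minus strand at chrX:7947890-7948139.
Hdac2: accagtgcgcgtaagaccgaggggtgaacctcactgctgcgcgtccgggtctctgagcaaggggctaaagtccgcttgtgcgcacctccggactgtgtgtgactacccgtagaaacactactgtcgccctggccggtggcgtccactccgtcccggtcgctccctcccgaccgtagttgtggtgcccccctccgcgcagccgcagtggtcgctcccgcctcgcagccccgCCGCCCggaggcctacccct
Hdac6: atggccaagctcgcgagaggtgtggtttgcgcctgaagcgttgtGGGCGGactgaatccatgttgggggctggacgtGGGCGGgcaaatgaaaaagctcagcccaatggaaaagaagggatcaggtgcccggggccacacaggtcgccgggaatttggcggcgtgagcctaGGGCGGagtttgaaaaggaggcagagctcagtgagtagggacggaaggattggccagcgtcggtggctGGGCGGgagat
The Hdac2 window holds 27 CG dinucleotides and 1 GC box, and the Hdac6 window 17 and 4. By contrast, neither of the 2 start sites listed for Hdac9 has a GC box, and they hold 0 and 2 CG dinucleotides. These matches describe the letters in the windows and do not show binding.

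All 10 deacetylases were expressed in the dentate gyrus of 3-month wild-type mice, at levels that spanned more than an order of magnitude per length. Hdac2 (ENSMUSG00000019777, chromosome 10 from 36974544 to 37001889), a core subunit of the Sin3, NuRD and CoREST complexes, was highest at 30.6 ± 0.695 RPKM (SD, n = 5). Hdac11 (ENSMUSG00000034245, chromosome 6) followed at 23.5 ± 1.77 RPKM and Hdac3, the catalytic subunit of the NCoR complexes, at 23.4 ± 0.742 RPKM, and these 2 levels did not differ beyond their spread. Hdac5 reached 11.9 ± 0.558 RPKM and Hdac6 7.95 ± 0.415. The remaining class IIa genes and Hdac8 were low, with Hdac9 at 3.70 ± 0.389 RPKM, Hdac7 at 3.13 ± 0.263, Hdac8 at 3.05 ± 0.350 and Hdac4 at 2.37 ± 0.170. Hdac1, with the limit given above, was lowest at 1.57 ± 0.247 RPKM. Of the 9 neighbouring pairs in this order, 6 differed by more than the sum of both SDs, and Hdac11 and Hdac3, Hdac9 and Hdac7, and Hdac7 and Hdac8 did not. The order between genes depends on the length used. Hdac2 has 4474 exon bases and Hdac3 4054, but their protein-coding transcripts hold 4181 and 1983 windows of 50 bases. A length from these transcripts would raise Hdac3 more than Hdac2, and no other length was tried.

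**Figure D1:**
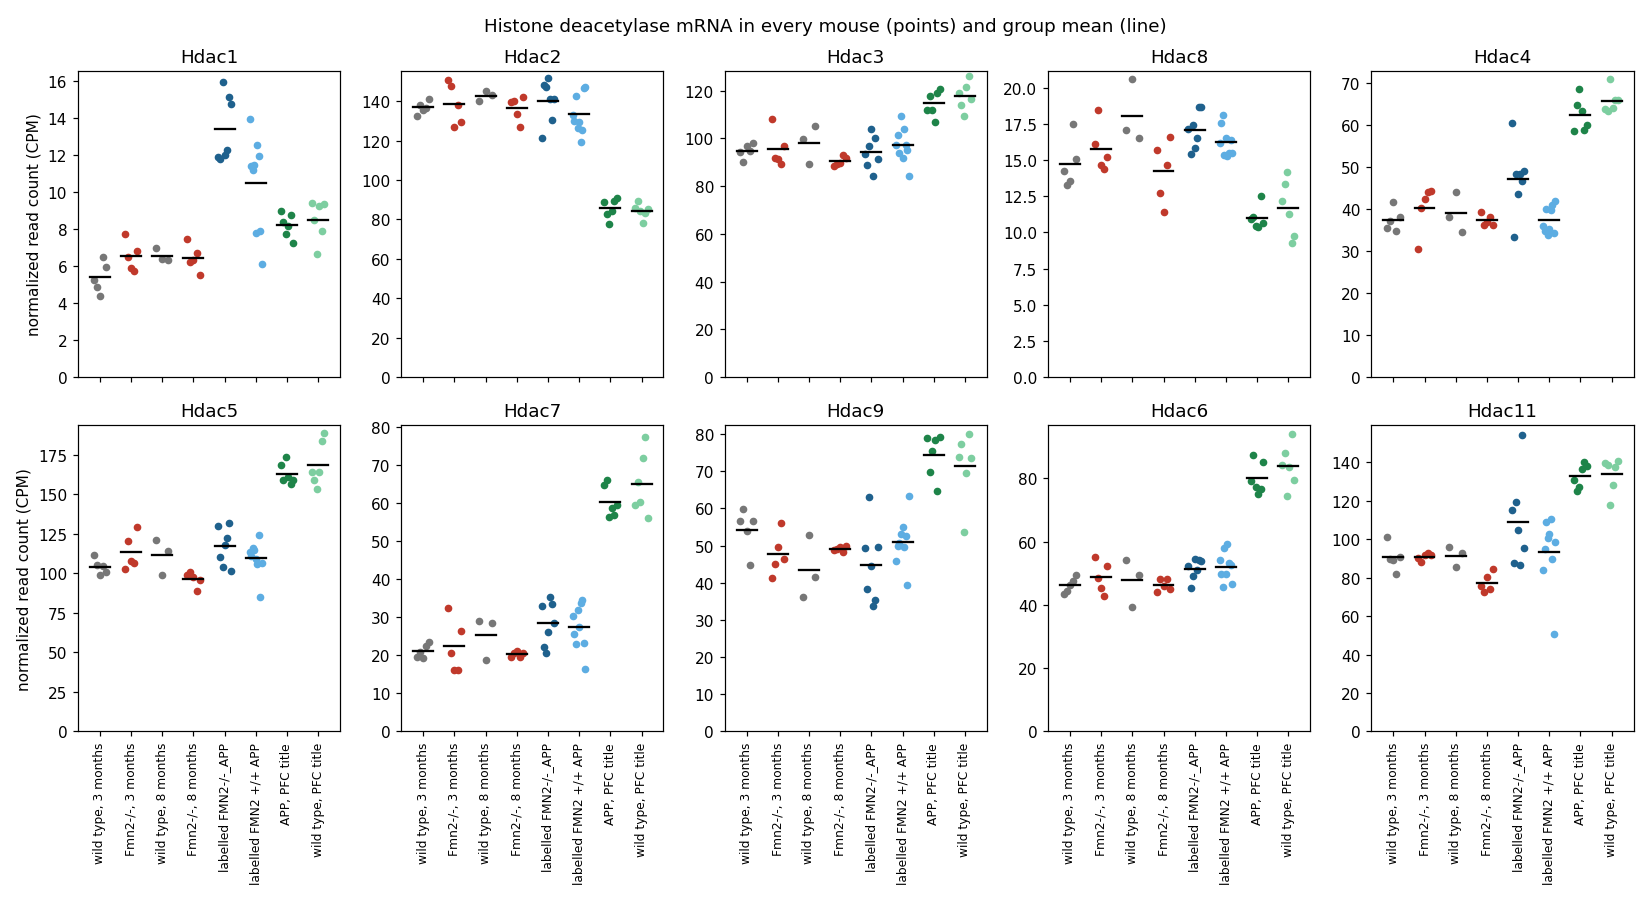
Normalized read count (CPM, linear axes from 0) of each histone deacetylase in every mouse (points) of the 8 groups, with the group mean as a line. In the last 2 groups, titled PFC, Hdac2 lies between 77.6 and 91.1 CPM against 119 to 152 in all other mice, and Hdac7 lies above 56 against at most 35.3.

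With these exon lengths, Hdac2 had the highest mean RPKM in each of the 6 dentate gyrus groups (29.8 to 31.9). It ranked 3 and 4 in the PFC-titled groups (19.1 ± 1.13 in APP and 18.8 ± 0.840 in wild-type mice, SD, n = 6 each). Hdac11 was first there, at 34.6 ± 1.58 and 34.8 ± 2.38 RPKM, followed by Hdac3 at 28.3 ± 1.31 and 29.04 ± 1.45. As a share of the summed RPKM of the 10 genes, Hdac2 made up 25.7 to 28.9% in the means of the dentate gyrus groups and 14.0 ± 0.585% and 13.5 ± 0.819% in the PFC-titled APP and wild-type groups. Class I as a whole made up 50.7 to 54.7% and 38.0 and 37.8%, respectively. Class IIa made up 18.7 to 19.4% of the summed level in the dentate gyrus and 26.7 ± 1.24% and 27.1 ± 0.940% in the PFC-titled groups, and Hdac6 7.08 to 7.75% and 10.1 and 10.3%. Hdac3 kept 18.9 to 21.2% in all 8 groups. All shares depend on the exon lengths used and were made without the gene length and GC correction described further on. With that correction, the PFC-titled minus dentate gyrus differences of Hdac2, Hdac5 and Hdac11 shrank and that of Hdac3 grew. Within whole tissue, fewer cells of a type and less RNA per cell cannot be told apart.

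**Figure D2:**
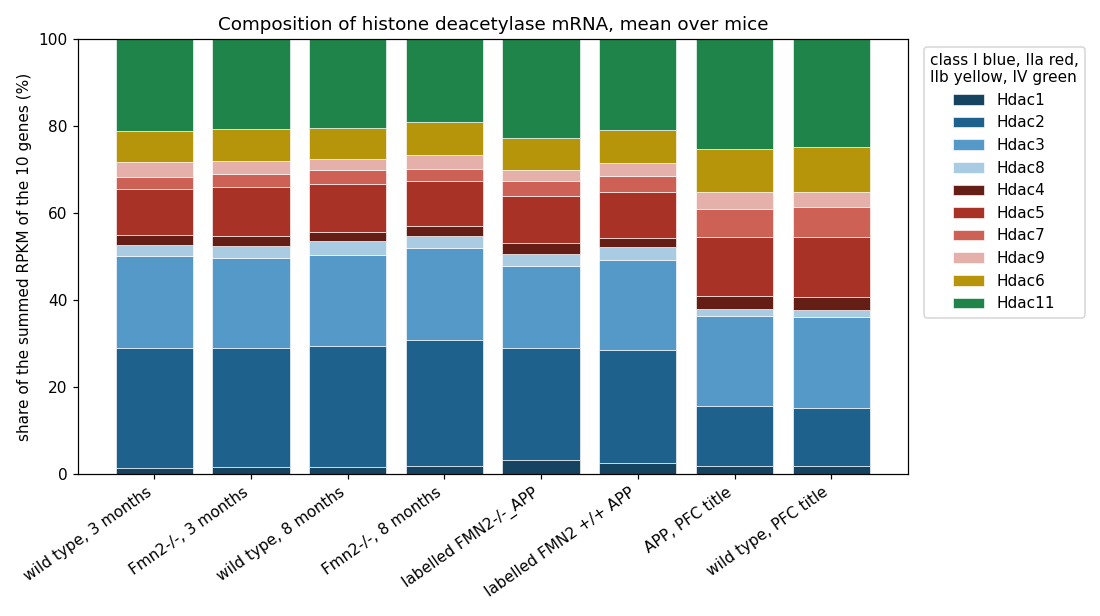
Share (%) of each member in the summed RPKM of the 10 histone deacetylases, as the mean over the mice of each group, stacked by class. Class I (blue) takes 50.7 to 54.7% of the bar in the 6 dentate gyrus groups and 38.0 and 37.8% in the PFC-titled APP and wild-type groups. The shares were made without the gene length and GC correction.

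Whether the loss of Fmn2 shifted the enzymes was asked first at 3 months. None of the 10 genes was called differentially expressed between Fmn2-/- and wild-type mice (adjusted p under 0.05 in edgeR's quasi-likelihood test and a log2 fold change of at least 0.25 in either direction), and none had groups that did not overlap. Of all 16630 genes tested, 0.0301% were called and 2.71% had groups that did not overlap. At an unadjusted p under 0.05 there was 1 member, Hdac9, against 10.5% of all genes. DESeq2 called no member and 0.695% of its genes. The log2 fold changes ran from -0.19 for Hdac9 (SE 0.0883, adjusted p = 0.473) to 0.28 for Hdac1 (SE 0.131, adjusted p = 0.48), with a median of 0.07 against 0.00 over all genes. Hdac2 stood at 133, 138, 136, 137 and 141 CPM in the 5 wild-type mice and at 151, 148, 127, 138 and 130 in the 5 Fmn2-/- mice, a log2 fold change of 0.01 (SE 0.0549, adjusted p = 0.951). Hdac3 and Hdac11 differed by as little, with log2 fold changes of 0.00 (SE 0.0587) and 0.00 (SE 0.0532). Hdac7 (ENSMUSG00000022475, chromosome 15), known for its roles in endothelial cells and thymocytes, varied most among the Fmn2-/- mice, from 16.01 to 32.5 CPM, and the highest of them, replicate 1, was the only Fmn2-/- mouse of this age sequenced on lane 5, the lane of all wild-type mice.

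At 8 months, the age at which the study examined memory decline, again none of the 10 genes was called, while 1.13% of 14665 genes were. At an unadjusted p under 0.05 there were 4 members, against 23.3% of all genes, and DESeq2 called 0 members and 5.76% of its genes. The values lay lower in Fmn2-/- mice for 9 of the 10 members, with a median log2 fold change of -0.08 against 0.01 over all genes. The share of all genes on that side was not counted. At 3 months 9 of the 10 members had lain on the other side of 0. Among the alternatives, the 8-month values of Hdac1, Hdac4 and Hdac6 crossed 0. So did the 3-month values of Hdac2, Hdac3, Hdac4, Hdac5, Hdac7 and Hdac11. Hdac11 came nearest to a call. It stood at 95.8, 85.3 and 92.9 CPM in the 3 wild-type mice and at 75.5, 72.7, 80.5, 73.9 and 84.4 CPM in the 5 Fmn2-/- mice, so that the groups did not overlap, and its log2 fold change was -0.24 (SE 0.0723, adjusted p = 0.103). It was the 1 member of 10 whose groups did not overlap at this age, against 11.7% of all genes.

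Class IIa showed values on both sides of 0 at 8 months. Hdac5 (ENSMUSG00000008855, chromosome 11), the most abundant of the class, had 121, 98.7 and 114 CPM in wild-type and 98.8, 100.9, 97.8, 88.6 and 95.7 CPM in Fmn2-/- mice (log2 fold change -0.21, SE 0.0767, adjusted p = 0.144). Hdac7 had 28.9, 18.6 and 28.5 CPM in wild-type mice and 19.5, 20.5, 21.2, 19.6 and 20.5 in Fmn2-/- mice (log2 fold change -0.34, SE 0.122, adjusted p = 0.135). Hdac9 (ENSMUSG00000004698, chromosome 12) lay the other way, at 36.1, 52.7 and 41.4 CPM in wild-type mice and 48.9, 49.0, 49.6, 48.2 and 49.8 in Fmn2-/- mice (log2 fold change 0.21, SE 0.105, adjusted p = 0.25). In all 3 genes wild-type replicate 2 lay on the side of the Fmn2-/- mice, apart from the other 2 wild-type mice. It was also the shallowest library of the series, with 6818809 reads, and was sequenced on lane 7 like the Fmn2-/- mice and wild-type replicate 3, whereas replicate 1 was on lane 6. Without this mouse, 4 members were called: Hdac7 with a log2 fold change of -0.49 (adjusted p = 0.00248), Hdac9 with 0.37 (adjusted p = 0.00577), Hdac5 with -0.28 (adjusted p = 0.0117) and Hdac11 with -0.28 (adjusted p = 0.0162). The calls over all genes rose in the same fit from 1.13% to 20.6% (3087 of 15021), so the rise was not particular to the deacetylases. Leaving out any of the other 7 mice left 0 members called, as did summing Fmn2-/- replicates 2 and 3. Their counts differed from each other less than those of any other pair of the 8-month Fmn2-/- mice.

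**Figure D3:**
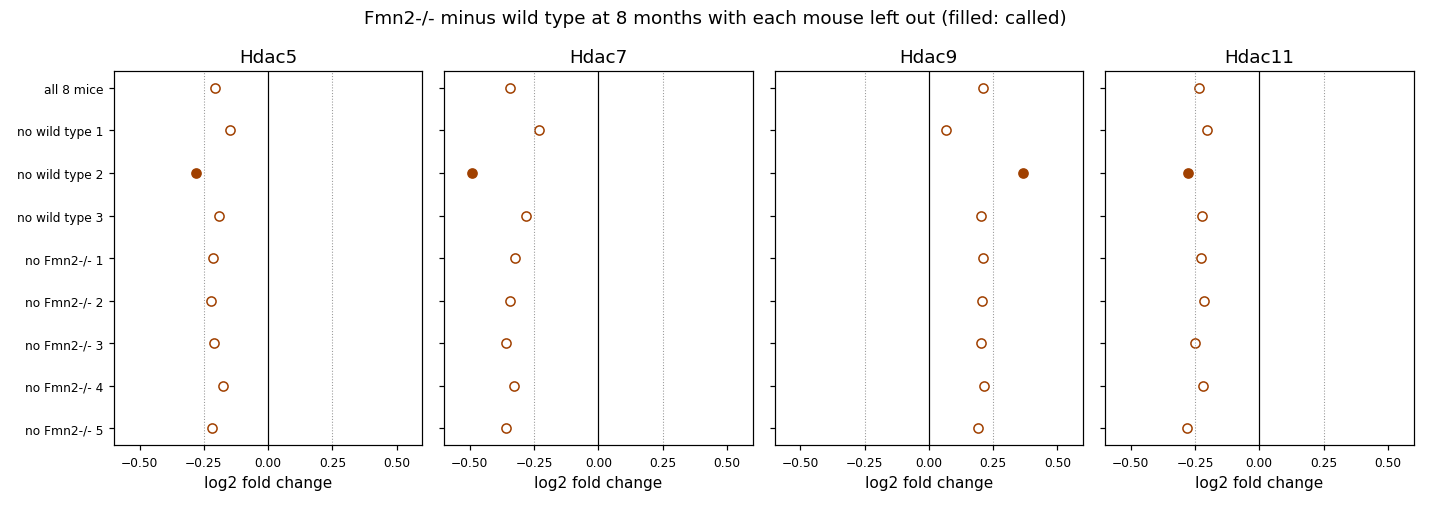
Log2 fold change (Fmn2-/- minus wild type at 8 months, x axis) of 4 members with all 8 mice and after removal of each single mouse; filled points were called and dotted lines mark 0.25 in either direction. The filled points all stem from the fit without wild-type replicate 2, where Hdac7 reached -0.49 and Hdac9 0.37 and where 20.6% of all genes were called.

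Among the class I genes at 8 months, Hdac8 had the largest difference, with 17.1, 20.6 and 16.6 CPM in wild-type and 15.7, 12.8, 11.4, 14.7 and 16.6 CPM in Fmn2-/- mice (log2 fold change -0.32, SE 0.131, adjusted p = 0.17). Hdac1, Hdac2 and Hdac3 had log2 fold changes of -0.03 (SE 0.138), -0.06 (SE 0.0662) and -0.11 (SE 0.0676). Summed markers of other cell types were compared as ranges, without a test. The 6 oligodendrocyte markers summed to between 2590 and 3303 CPM in wild-type and between 1935 and 2748 in Fmn2-/- mice, the 5 astrocyte markers to between 1582 and 1764 and between 1867 and 2141, and the 6 microglia markers to between 240 and 270 and between 279 and 315, with no marker at 0 in a whole group. Their part in the values of the deacetylases was not tested.

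The difference between the genotype effects of the 2 ages was tested as an interaction over all 18 mice. No member was called, with 3.73% of 17046 genes called, and 4 members had an unadjusted p under 0.05, as did 22.9% of all genes. The lowest adjusted p belonged to Hdac5 (log2 difference of -0.34, SE 0.104, adjusted p = 0.0709), followed by Hdac11 (-0.25, SE 0.0871, adjusted p = 0.0973), Hdac9 (0.39, SE 0.145, adjusted p = 0.122) and Hdac8 (-0.43, SE 0.164, adjusted p = 0.129). DESeq2 called 1 member, Hdac5 (-0.32, adjusted p = 0.0365), and 11.0% of its genes. Without wild-type replicate 2 of 8 months, Hdac5 (-0.40, adjusted p = 0.0129), Hdac9 (0.55, adjusted p = 0.0114) and Hdac11 (-0.28, adjusted p = 0.0392) were called, as were 15.9% of all genes.

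With age, no member was called in wild-type mice, where 9.21% of all genes were, and none in Fmn2-/- mice, where 6.44% were. In Fmn2-/- mice 2 members passed the adjusted p alone and missed the size of 0.25. They were also the 2 whose groups did not overlap, against 9.22% of all genes. Hdac11 went from 90.3, 88.2, 91.8, 92.8 and 91.8 CPM at 3 months to the 8-month values above, without overlap (log2 fold change -0.23, SE 0.0571, adjusted p = 0.0175). Hdac5 went from 102.5, 120, 108, 106.4 and 129 CPM to at most 100.9, also without overlap (-0.23, SE 0.0685, adjusted p = 0.0429). In wild-type mice the same 2 genes had log2 fold changes of 0.02 (SE 0.0659) and 0.11 (SE 0.0788). The lowest adjusted p in wild-type mice was that of Hdac9 (-0.34, SE 0.111, adjusted p = 0.056), which DESeq2 called (-0.35, adjusted p = 0.0275) with 14.2% of its genes. Hdac9 was also called without wild-type replicate 4 of 3 months (-0.41, adjusted p = 0.0218), wild-type replicate 2 of 8 months (-0.50, adjusted p = 0.00551), Fmn2-/- replicate 1 of 3 months (-0.34, adjusted p = 0.0405) or Fmn2-/- replicate 5 of 3 months (-0.35, adjusted p = 0.0407). In these 4 fits 9.92%, 17.1%, 11.0% and 9.45% of all genes were called, in the same order. In Fmn2-/- mice, leaving out replicate 1 of 3 months called Hdac5 (-0.26, adjusted p = 0.0251) and leaving out replicate 5 of 8 months called Hdac11 (-0.26, adjusted p = 0.0148), with 6.26% and 5.23% of all genes called. Ages were mostly sequenced on different lanes and at different depths, 19554931 to 42177775 reads at 3 months, and no lane held both ages of a genotype, so age and lane cannot be told apart within a genotype.

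In the amyloid cross, which asked how the loss of Fmn2 acts together with amyloid, no member was called between the mice labelled FMN2-/-_APP and those labelled FMN2 +/+ APP at the log2 size of 0.5 used for this kind of comparison. Of 16656 genes, 0.774% were called. Hdac4 (ENSMUSG00000026313, chromosome 1), a class IIa enzyme that represses MEF2 targets and is needed for memory in mice, had the lowest adjusted p. It ranged from 33.3 over a median of 48.2 to 60.4 CPM in the 7 mice labelled FMN2-/-_APP and from 33.9 over 35.9 to 41.8 in the 9 mice labelled FMN2 +/+ APP, a log2 difference of 0.33 (SE 0.0904, adjusted p = 0.0679). All but 1 of the 7 mice thus lay above the other group. Hdac1 ranged from 11.8 over 12.3 to 15.98 CPM and from 6.12 over 11.4 to 14.0 (log2 difference of 0.35, SE 0.146, adjusted p = 0.233). The 3 lowest Hdac1 values were those of replicates 4, 8 and 9 labelled FMN2 +/+ APP, of which replicate 4 had the most choroid plexus RNA and replicates 8 and 9 the most astrocyte RNA of the cross (summed markers of 2925 and 4116 CPM). Gm10093 stood at 2.26, 1.28 and 1.28 CPM in these 3 mice, within 0.163 to 2.26 over the cross. Replicates 8 and 9 were also the only mice of the cross sequenced on lane 7 alone. The part of the markers and of Gm10093 in the Hdac1 values was not tested. Hdac11 varied widely within both groups, from 86.5 to 154 and from 50.5 to 111 CPM, and did not separate them (log2 difference of 0.22, SE 0.143, adjusted p = 0.462). Leaving out the 2 libraries with high choroid plexus markers left 0 members and 0.341% of all genes called, with Hdac4 at 0.33 (adjusted p = 0.157).

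Between the PFC-titled APP and wild-type mice, the comparison of amyloid against no amyloid within 1 experiment, no member was called and 2.34% of 16733 genes were. No member had an unadjusted p under 0.05, DESeq2 called no member and 2.13% of its genes, and the SEs ran from 0.0419 to 0.1. The log2 fold changes ran from -0.10 for Hdac7 (SE 0.0713, adjusted p = 0.592) to 0.07 for Hdac9 (SE 0.0756, adjusted p = 0.774). Hdac2 ranged from 77.6 over a median of 86.6 to 91.1 CPM in APP and from 77.9 over 84.8 to 89.4 CPM in wild-type mice, 0.03 on the log2 scale (SE 0.0445). Hdac3 differed by -0.03 (SE 0.0419) and Hdac11 by 0.00 (SE 0.0458). The 6 microglia markers summed to 407 to 530 CPM in APP and 263 to 288 in wild-type mice of the same comparison. Astrocyte markers summed to 1095 to 1286 and 884 to 1019, and oligodendrocyte markers to 1359 to 2080 and 2208 to 6205. These sums did not overlap between the groups. The ranges of each of the 10 deacetylases overlapped, as did those of most genes, with 3.37% of all genes not overlapping. All APP mice were on lane 7 and all wild-type mice on lane 5.

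**Figure D4:**
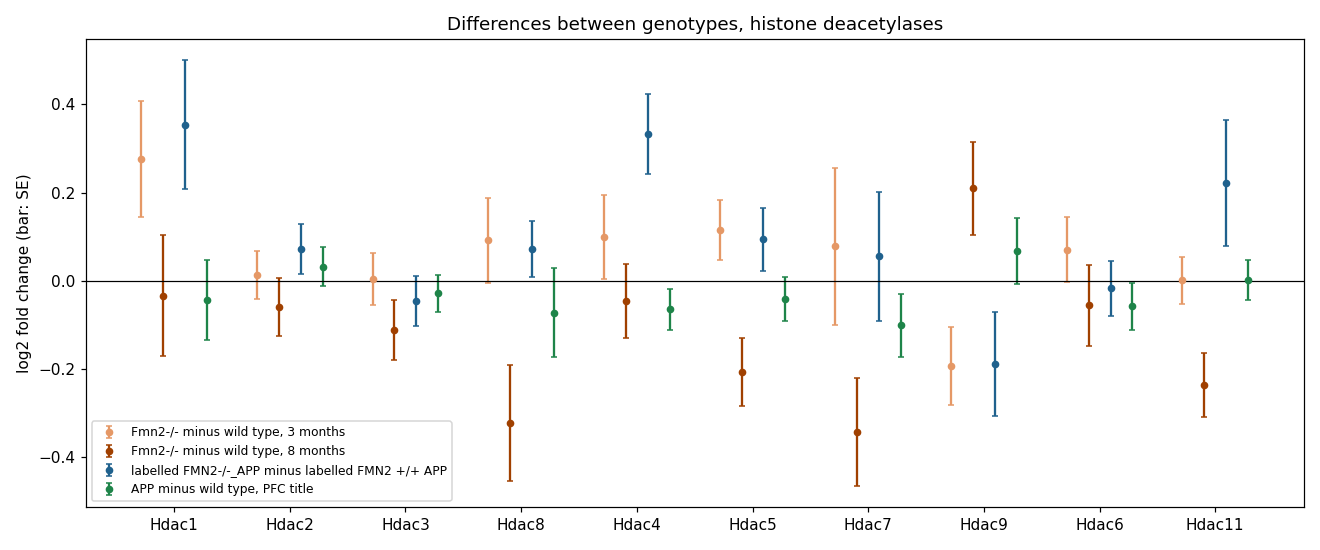
Log2 fold change (points) with its standard error (bars) of each member in the 4 comparisons between genotypes. No point was called. The PFC-titled comparison of APP with wild type stays between -0.10 and 0.07. The 8-month comparison lies below 0 for 9 of the 10 members, and the 3-month comparison lies above 0 for 9 of the 10. Among the alternatives, Hdac1, Hdac4 and Hdac6 crossed 0 at 8 months. At 3 months Hdac2, Hdac3, Hdac4, Hdac5, Hdac7 and Hdac11 did.

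The largest differences of the family lay between the PFC-titled and the dentate gyrus libraries. In wild-type mice, 7 of 10 members were called at the log2 size of 0.5, 6 of them higher and Hdac2 lower in the PFC-titled libraries, and 8 had groups that did not overlap. The background of this comparison is high, with 45.1% of 16661 genes called and 57.9% not overlapping. Among APP-carrying mice, where the PFC-titled APP group was set against the mean of both cross groups, 7 of 10 were called, 4 higher and 3 lower, against 44.8% of 17570 genes, and 6 had groups that did not overlap, against 33.5%. These 2 comparisons share no mouse. In both, experiment, age (3 against 4 months) and tissue cannot be told apart, although all 11 wild-type libraries carry the same lane number. In the APP comparison lane and Fmn2 differed as well. All PFC-titled APP mice were on lane 7, which held only part of the cross mice. Fmn2 averaged 105.6 CPM in the PFC-titled APP mice, against 90.9 and 20.5 CPM in the 2 cross groups. The medians of the members were 0.56 and 0.43 on the log2 scale, against -0.01 and -0.02 over all genes.

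Most of the genes that rose belonged to class IIa and IIb. Hdac7 ranged from 19.3 to 23.3 CPM in the 5 wild-type dentate gyrus mice and from 56.1 over a median of 62.9 to 77.3 CPM in the 6 PFC-titled wild-type mice, 2.98-fold higher (log2 1.57, SE 0.087, adjusted p = 6.35e-10). In APP mice it was 2.12-fold higher (log2 1.08, SE 0.117, adjusted p = 1.93e-08), with at most 35.3 CPM in the 16 cross mice and at least 56.2 in the 6 PFC-titled mice. Hdac6 rose by 0.81 (SE 0.0568, adjusted p = 7.47e-09) and 0.60 (SE 0.053, adjusted p = 6.09e-10), and Hdac4 by 0.76 (SE 0.0529, adjusted p = 6.95e-09) and 0.54 (SE 0.0763, adjusted p = 1.06e-06). Hdac5 rose by 0.65 in wild-type mice (SE 0.054, adjusted p = 5.09e-08) and stood at 0.50 in APP mice, just under the size threshold (0.4963, SE 0.0609, adjusted p = 1.39e-07), and above it in DESeq2 (0.51). Hdac9 was called in APP mice alone (0.61, SE 0.098, adjusted p = 6.98e-06), with 0.35 in wild-type mice (SE 0.0897, adjusted p = 0.00275). The difference between the 2 comparisons was not past the threshold for Hdac9 (0.24, SE 0.155, adjusted p = 0.264).

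Hdac2 fell in both. It ranged from 133 to 141 CPM in the wild-type dentate gyrus mice and from 77.9 over 84.8 to 89.4 CPM in the PFC-titled wild-type mice (log2 fold change -0.75, SE 0.0376, adjusted p = 2.35e-10). In the cross it ranged from 119 to 152 CPM, against 77.6 to 91.1 in the PFC-titled APP mice (-0.70, SE 0.0525, adjusted p = 3.79e-11). The other class I genes went separate ways. Hdac8, a class I enzyme that also deacetylates cohesin, stood at -0.39 in wild-type mice (SE 0.114, adjusted p = 0.0065), under the size threshold, and fell by 0.63 in APP mice (SE 0.0594, adjusted p = 2.01e-09). Hdac3 stood at 0.26 and 0.23 with adjusted p of 4.54e-05 and 0.000148, also under the size threshold. Hdac11 rose by 0.51 in wild-type mice (SE 0.0556, adjusted p = 8.14e-07), or 0.48 and no longer called without wild-type dentate gyrus replicate 4, and stood at 0.37 in APP mice (SE 0.117, adjusted p = 0.0072).

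Hdac1 was called in opposite directions. It ranged from 4.38 to 6.52 CPM in wild-type dentate gyrus and from 6.63 over 8.87 to 9.39 CPM in the PFC-titled wild-type mice (log2 fold change 0.61, SE 0.119, adjusted p = 0.00029). In APP mice it ranged from 7.22 over 8.26 to 8.97 CPM in the PFC-titled libraries against 6.12 to 15.98 in the cross (-0.56, SE 0.131, adjusted p = 0.000554). Its PFC-titled levels overlapped between genotypes, and the dentate gyrus levels were the ones that differed between the 2 experiments. A single fit of the 33 mice, run after these results were seen, gave a difference of -1.19 between the 2 comparisons for Hdac1 (SE 0.198, adjusted p = 4.29e-05) and of -0.51 for Hdac7 (SE 0.178, adjusted p = 0.0314), with 12.7% of 18157 genes called. With sequencing lane as a covariate, Hdac1 in APP mice turned to 0.09 (adjusted p = 0.683). In the same fit Hdac7 stood at 1.61 (adjusted p = 1.01e-06), beside 1.57 in wild-type mice, where lane could not be fitted. The only cross mice on lane 7 alone were replicates 8 and 9 labelled FMN2 +/+ APP, so these lane-adjusted values rest on them. They had 7.89 and 6.12 CPM of Hdac1 and 23.2 and 16.4 CPM of Hdac7. The fit thus cannot separate lane from these mice. With the libraries labelled FMN2-/-_APP alone on the dentate gyrus side, Hdac1 stood at -0.75 (adjusted p = 6.59e-06). With those labelled FMN2 +/+ APP alone it stood at -0.39 (adjusted p = 0.026), no longer called. Gm10093, which shares the sequence printed above, was lower in all 12 PFC-titled libraries than in all dentate gyrus libraries but replicates 3 and 7 labelled FMN2-/-_APP. Its part in the Hdac1 values was not tested.

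**Figure D5:**
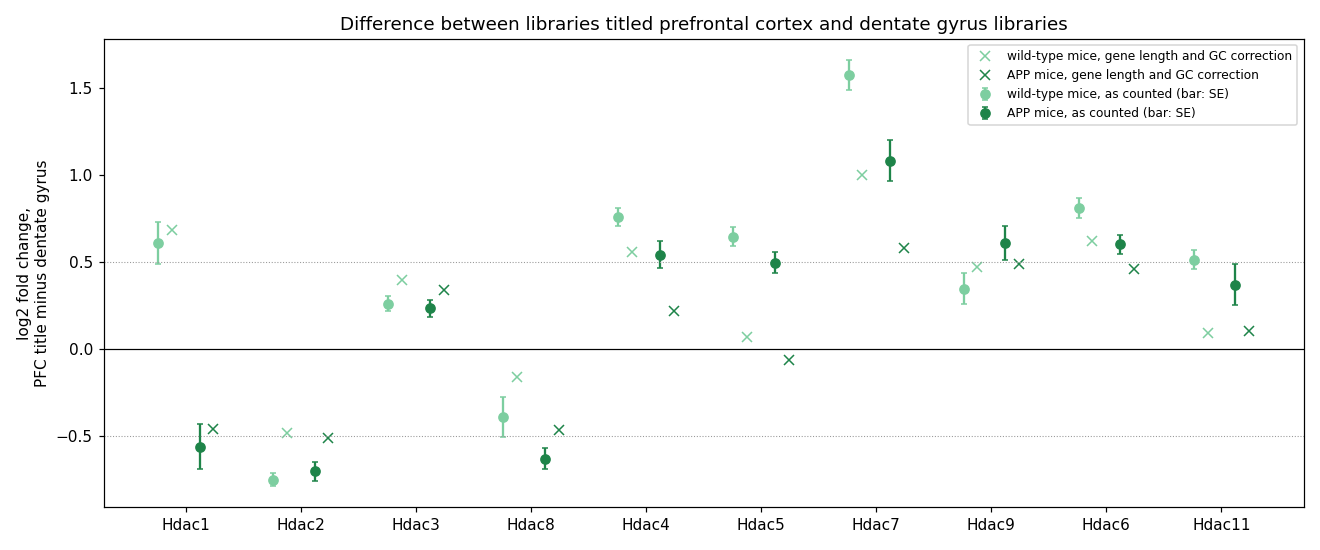
Log2 fold change of each member between PFC-titled and dentate gyrus libraries in wild-type mice (light) and APP mice (dark), as counted (points with standard error) and with the gene length and GC correction (crosses); dotted lines mark 0.5 in either direction. Hdac1 lies at 0.61 and -0.56, Hdac2 at -0.75 and -0.70, and the crosses of Hdac5 lie at 0.07 and -0.06.

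Correcting the counts for the length and GC content of the transcripts reduced these calls to 4 of 10 members in wild-type mice, where 40.3% of all genes were called, and to 2 of 10 in APP mice, where 41.0% were. The members' share was thus near the background in wild-type mice and below it in APP mice. The Hdac7 difference remained called in both (1.002 and 0.58), Hdac1, Hdac4 and Hdac6 in wild-type mice (0.69, 0.56 and 0.62) and Hdac2 in APP mice (-0.51, with -0.48 in wild-type mice). Hdac5 (GC content of 59.8% in its longest transcript) dropped to 0.07 and -0.06 and Hdac11 (57.4%) to 0.09 and 0.11, whereas Hdac3 (47.1%) stood at 0.40 and 0.34.

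The partners of the enzymes were counted in lists chosen for their known roles, against the 45.1% and 44.8% of all genes called in the region comparisons. The share called was below this background in each list but the MEF2 factors in wild-type mice. In the region comparison of wild-type mice, 2 of 7 sirtuins, the NAD-dependent class III deacetylases, rose and none fell, namely Sirt4 (log2 fold change 1.24, SE 0.0819, adjusted p = 3.93e-09) and Sirt7 (1.12, SE 0.079, adjusted p = 8.12e-09), and the same 2 rose in APP mice (0.52 and 0.65). Of the Sin3 complex, 2 of 10 genes fell and none rose in each comparison. Sap30, a subunit that links Sin3 to HDAC1 and HDAC2, fell in both (-1.35, SE 0.125, and -0.88, SE 0.139). Of the NuRD complex, a chromatin remodeller with the same 2 enzymes, 2 of 11 genes fell in wild-type mice (Mbd2, -0.85, and Rbbp7, -0.57) and 3 in APP mice (Rbbp7, -0.85, Rbbp4, -0.62, and Mbd2, -0.52), and none rose. Rcor3 was the 1 of 7 CoREST genes that fell in both (-0.59 and -0.61). Tbl1x was the 1 of 5 genes of the NCoR complex that rose in both (0.71 and 0.86). Among MEF2 factors, 3 of 4 were tested, and Mef2c rose in both (1.33, SE 0.16, and 1.90, SE 0.092) while Mef2a fell in wild-type mice (-0.76, SE 0.0359).

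In the Fmn2 comparison at 3 months, in the cross and in the PFC-titled comparison of APP with wild type, no gene of the 6 lists was called. At 8 months 1 was, Hmg20b of the CoREST complex, which fell in Fmn2-/- mice (-0.59, SE 0.122, adjusted p = 0.0459). Of all genes, 1.13% were called there. With age in Fmn2-/- mice, Hmg20b (-0.50) and Gps2 (-0.45) of the corepressor complexes, Sap130 (-0.31), Gatad2a (-0.29) and Mta1 (-0.26) fell and Rbbp4 rose (0.25). Called were 1 of 10 Sin3 genes, 2 lower and 1 higher of 11 NuRD genes, 1 of 7 CoREST genes and 2 of 5 NCoR genes. No sirtuin or MEF2 factor was called, and 6.44% of all genes were. In wild-type mice Ncor1 (-0.46), Tbl1x (-0.32), Sap130 (-0.32) and Mta3 (-0.47) fell with age and Mbd3 rose (0.34). These were 2 of 5 NCoR genes, 1 of 10 Sin3 genes, and 1 lower and 1 higher of 11 NuRD genes. No gene of the other lists was called, and 9.21% of all genes were. The interaction of age and genotype was called for Hmg20b (-0.60), Mbd3 (-0.43), Brms1 (-0.37), Sirt3 (-0.26) and Tbl1x (0.38). Each was the 1 gene called of its list, of 7 CoREST, 11 NuRD, 10 Sin3, 7 sirtuin and 5 NCoR genes. No MEF2 factor was called, and 3.73% of all genes were.

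Hdac7 and Hdac1 had the widest ranges of the 8 group means, 1.68 and 1.32 on the log2 scale. Among 15372 other protein-coding genes, those whose group means followed Hdac7 closely included Ssh3 (Pearson r = 0.998 over the 8 group means) and Rps6kb2 (r = 0.998). Those nearest to Hdac1 were Capn10 (r = 0.985), Med20 (r = 0.981) and Odc1 (r = 0.979). These values are descriptions, since the 8 means fall into few experiments that share libraries and lanes.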

How the data were processed

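Total RNA was extracted from whole tissue and the authors prepared TruSeq mRNA libraries, used STAR for alignment to mm10 and HTSeq for counting reads per gene. The annotation, read length and strand setting are not given in the sources used here. The deposited values are raw read counts by Ensembl identifier, 48709 genes for each of 48 runs, and 2 mice with 2 runs were summed. Symbols, exon lengths and positions came from GENCODE M21, which matched 48349 identifiers. Some members share exon bases with overlapping or antisense genes (3536 bases of Hdac4 with Gm26720, 594 of Hdac11 with Gm44002), whose reads cannot be told apart without strand.

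Each comparison was fitted on all genes of its mice with edgeR 4.0.16 (quasi-likelihood test, TMM, filterByExpr) and Benjamini-Hochberg adjustment over all genes tested. Genes were called at an adjusted p under 0.05 with a log2 fold change, in either direction, no smaller than 0.25 (Fmn2 and age) or 0.5 (amyloid and region), sizes taken from the study's figure legends. Standard errors are the log2 fold change divided by the root of the F statistic. The code was tested on simulated data. DESeq2 1.42.0, other size factors, no filter, a gene length and GC correction, replicate and lane terms, a draw-down of depth and leaving out each mouse were alternatives. Copies of the members were searched with blastn 2.17.0 at 90% identity over at least 300 bases. All 10 members are named by rule, partner genes only where called, at most 3 a list and comparison, largest first. Some genes that the rule names are not reported here. The members, gene lists and tests were chosen with earlier results of these data known. Nothing says that same-numbered mice were littermates or were processed together. Between replicates 2 and 3 of the 8-month Fmn2-/- mice the chi-square divided by its degrees of freedom was 1.62, against 3.50 to 6.40 for other pairs of the group and 1.72 and 2.15 for repeat runs of 1 mouse. This value rises with read depth, and replicates 2 and 3 had 9175551 and 9943023 reads, fewer than most libraries. It can therefore be compared within the group but not directly with deeper libraries. Replicates 2 and 3 were kept as 2 mice, as labelled, and summed as an alternative.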

Additional observations from a re-analysis of the deposited data

Results flagged for a closer look

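Of 77 sets of values (11 genes including Fmn2 in the 7 groups of 5 to 9 mice), 4 held a mouse far from the others, and chance alone flags about 1 in 20. Hdac11 stood at 50.5 CPM in replicate 8 labelled FMN2 +/+ APP, with the other 8 mice between 84.1 and 111, and Hdac5 stood at 85.2 CPM in the same mouse, with the others between 105.8 and 124. The summed astrocyte markers of that library were 2925 CPM, above all but 1 of its group. Hdac4 stood at 70.8 CPM in PFC-titled wild-type replicate 3, with the others between 63.3 and 65.9, and this library also had the highest oligodendrocyte sum of all, 6205 CPM. Hdac8 stood at 12.5 CPM in PFC-titled APP replicate 5, with the others between 10.4 and 11.1. The part of these cell markers in the values was not tested.

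The difference between PFC-titled and dentate gyrus libraries itself differed between APP and wild-type mice for Hdac1, by -1.19 on the log2 scale, and for Hdac7, by -0.51, in the added fit of 33 mice. Hdac7 kept its direction in both comparisons, whereas Hdac1 changed it. The added fit had no lane term. With lane as a covariate in the APP comparison, Hdac1 stood at 0.0929 and Hdac7 at 1.61. Those values rest on replicates 8 and 9 labelled FMN2 +/+ APP, the only cross mice on lane 7 alone. In wild-type mice, without that term, they stood at 0.61 and 1.57. The APP and wild-type dentate gyrus mice came from different experiments, so APP and experiment cannot be told apart.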

How the results depend on the processing

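Of 207 recomputed counts of members called, 192 stayed the same or within 1.5 times. DESeq2 gave 1 member for the age by genotype interaction and 1 for age in wild-type mice, against 0. Without a filter on low counts, 2 members were called for age in Fmn2-/- mice, against 0. The gene length and GC correction gave 4 members in the region comparison of wild-type mice and 2 in that of APP mice, against 7 each, with and without the replicate block. Leaving out each mouse in turn gave 0 to 4 members at 8 months, 0 to 3 for the interaction, 0 to 1 for age in wild-type and 0 to 1 for age in Fmn2-/- mice, 6 to 7 for the region comparison of wild-type and 7 to 8 for that of APP mice, and 0 throughout at 3 months, in the cross and for APP against wild type. Of 2070 recomputed member values, 19 lost and 33 gained a call and 1 called value reversed (Hdac1 in the APP region comparison, 0.0929 with lane as a covariate), while 87 uncalled values crossed 0. Fits on both region comparisons with the replicate number as a block alone gave 7 members each and all others 0. Same-numbered mice did not deviate together (mean r of -0.00378 to 0.0815), so the numbers were not taken as pairs. The alternatives on choroid plexus markers and on single cross groups were chosen after seeing the data and gave 6 to 7 members in the APP region comparison. Lane could not be fitted for APP against wild type or for the region comparison of wild-type mice. Summing Fmn2-/- replicates 2 and 3 of 8 months, drawing all libraries down to the smallest and using the first runs of the cross only changed no count. The 8-month comparison rests on 3 wild-type mice, with SEs of 0.0662 to 0.138, and no interval covers reads lost to the copies of Hdac1.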
